A study of Mus musculus with 4 samples.

Results

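The genes of the proteasome were followed in mouse bone marrow LSK cells that carried a high or a low level of c-Myc protein. The set was chosen by name: every probe set annotated to a single gene whose symbol begins with Psma, Psmb, Psmc, Psmd, Psme, Psmf or Psmg. This gave 103 of 45037 probe sets and 49 of 18193 genes. Of the 49 genes, 47 encode proteasome subunits, activators, an inhibitor or assembly chaperones and are called proteasome genes below. The other 2, Psmc3ip and Psme3ip1, share the prefix because their products bind a proteasome protein, and they are given separately. Psme2, a subunit of the same activator as Psme1, had no probe set annotated to it alone and was not analysed here.

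LSK cells are the lineage-negative marrow cells that bear c-Kit and Sca1; stem cells and early progenitors with several fates lie among them. The labels describe femur marrow of WT B6/129 mice, whose LSK cells were parted by their c-Myc-eGFP protein: Hi cells had much of it and Lo cells little. Each group has 2 arrays, both groups carry the eGFP-tagged c-Myc, and the sources used here do not give the age, the number or any pooling of the mice. All 4 arrays shared the amplification of 5 ng of total RNA, and nothing states that the 2 arrays of a group came from separate mice, so every p-value measures the spread between these arrays, which may be technical. Levels are log2 of the deposited intensity, and a difference is Hi minus Lo on that scale. The levels of different genes come from different probes and are not compared with each other.

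The proteasome degrades proteins that carry a ubiquitin chain. Its barrel-shaped core is built of alpha rings, which gate the entrance, and beta rings, which hold the cutting sites. A cap of base and lid recognizes, unfolds and threads in the substrate: the base holds ATPases and ubiquitin receptors, and the lid removes the ubiquitin chain. In blood and immune cells the catalytic beta subunits Psmb5, Psmb6 and Psmb7 can be replaced by Psmb8, Psmb9 and Psmb10, which gives the immunoproteasome and favours peptides for MHC class I. c-Myc is itself a short-lived protein that the proteasome degrades after ubiquitin ligases such as Fbxw7 have marked it.

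The proteasome genes were slightly higher in Hi as a group, and no single member passed the test. Of 47 genes, 41 had a difference above 0 and 6 below 0, with a median difference of 0.19, or 1.14-fold. Over all 18193 genes the median was 0.03 and 53.6% were above 0. For 28 of the 47 genes (59.6%) the lower Hi array exceeded the higher Lo array, against a background of 30.0% of all genes. For 3 genes, Psmb1, Psmb10 and Psme1, the reverse held (background 25.4%). By limma's test over all probe sets, 0 proteasome genes passed an adjusted p of 0.05, as did 0% of all probe sets, and the smallest adjusted p among them was 0.117. At an unadjusted p under 0.05, 7 of the 47 (14.9%) were higher, against 9.25% of all genes, and 0 were lower, against 11.0%. Those 7 were Psme3, Psmg2, Psmb2, Psmd13, Psmd7, Psmg3 and Psmd9. The count was 2 without the first Hi array, where 4.46% of all genes were higher by that limit, and 1 without the second, where 4.84% were; as shares of the 47 genes both counts are below these.

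**Figure D1:**
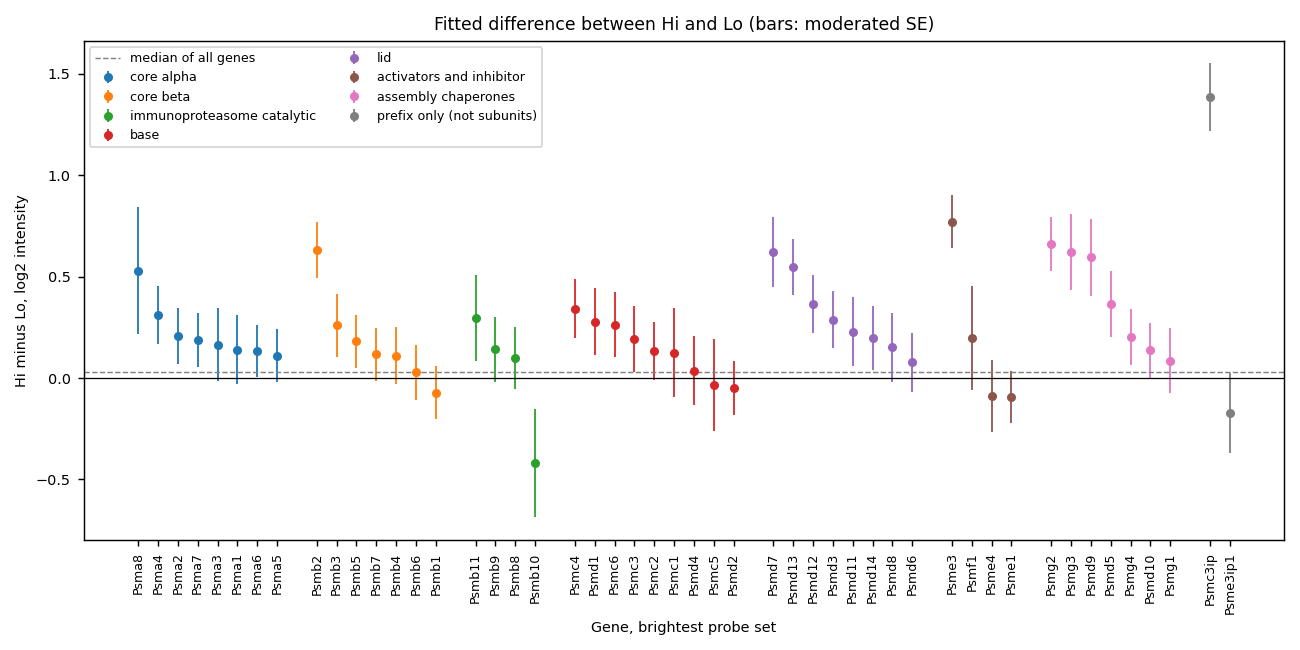
Difference of Hi minus Lo in log2 intensity (vertical axis) for the brightest probe set of each gene (horizontal axis), coloured by class, with bars for the moderated standard error of the limma fit. Most points lie a little above 0 and above the dashed median of all genes at 0.03; Psme3 is the highest proteasome gene at 0.77 and Psmb10 the lowest at -0.42.

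The size of this shift varied with the Lo array and with the scaling. The first Lo array was the lowest of the 4 for 33 of the 47 genes, against 29.5% of all genes, and the second Lo array for 9, against 27.7%. For 16 genes the second Lo array was at or above the lower Hi array. Relative to each gene's mean over the 4 arrays, the median proteasome gene stood at 0.09 on both Hi arrays, at -0.20 on the first Lo array and at -0.05 on the second. Without the first Lo array 33 of 47 genes had a difference above 0, against 52.7% of all genes, and the median difference was 0.14. Without the second, 41 did, against 54.2% of all genes, and the median was 0.27. When the arrays were shifted to 1 common median, 46 of 47 were above 0 with a median of 0.28. The same shift moved the median of all genes from 0.03 to 0.12 and their share above 0 from 53.6% to 63.6%. The proteasome probe sets were bright, with a median percentile of 93.9 among all genes. Among the 5203 genes with a mean log2 intensity of at least 10, 50.1% had a difference above 0, 32.3% did not overlap with Hi higher, and 11.7% were higher at an unadjusted p under 0.05, against 14.9% of the proteasome genes.

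**Figure D2:**
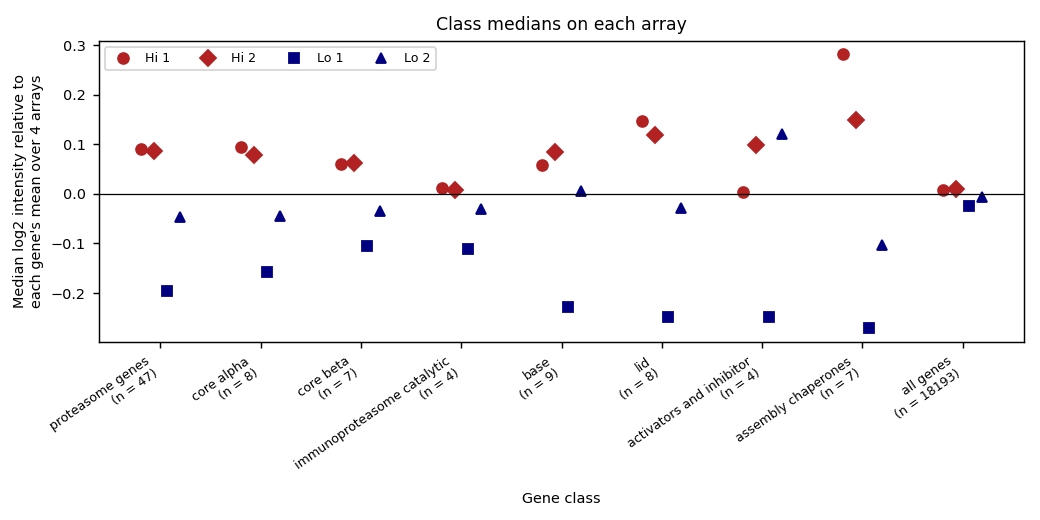
Median log2 intensity of the genes of each class relative to each gene's mean over 4 arrays (vertical axis), by class (horizontal axis), with 1 symbol per array. Both Hi arrays lie above the first Lo array in all 7 classes, while the second Lo array lies between, except for the activators and inhibitor, where it stands at 0.12, above both Hi arrays.

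Other features of the samples moved with the groups. The LSK genes measured here, Kit, Cd34, Flt3 and Ptprc, were above 11 on the log2 scale on all 4 arrays, with 1 above 0 and 3 below in Hi minus Lo; Ptprc, which encodes CD45, had -0.58 ± 0.15 (SE) and did not overlap; Ly6a, which encodes Sca1, was not analysed here. All 8 replication genes listed were higher in Hi, with a summed level of 15.50 and 15.52 in Hi and of 14.87 and 14.91 in Lo on the log2 scale. All 6 erythroid markers were higher (summed level 13.60 and 13.83 against 11.06 and 11.52; Hba-a1 was dim on every array, that is, no brighter than the brightest silent bacterial control probe set), as were all 5 granulocyte-monocyte markers (15.55 and 15.43 against 14.12 and 13.96). All 5 stem cell markers were lower (12.56 and 12.60 against 13.92 and 13.83). Of other mature cell markers, 1 of 4 for neutrophils, 1 of 3 for B cells, 0 of 3 for T cells and 1 of 2 for NK cells were above 0. Those that did not overlap were Cd79a (0.16) and Nkg7 (0.55), higher in Hi, and Cd79b (-0.34), Ms4a1 (-0.79), Cd3d (-0.77) and Ncr1 (-1.56), lower. Over all genes, 30.0% did not overlap with Hi higher and 25.4% with Hi lower, so such a count is common in any list. The log2 intensity of the 3′ minus that of the 5′ Gapdh control, a sign of RNA quality, stood at 0.63 and 0.66 on the Hi arrays, and Lo had 0.74 and 0.78. For Actb the Hi arrays had 0.60 and 0.55, and Lo had 0.84 and 0.57. The part of these in the proteasome differences was not tested, and in sorted mixtures fewer cells of a type and less RNA per cell cannot be told apart.

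Promoter sequences are shown for members that carry 1 of a pair of motifs, because the Hi and Lo groups differ in the protein of a factor that binds the first. The E-box CACGTG is the preferred site of c-Myc with its partner Max, and TGACNNNGC is the core of the antioxidant response element, bound by Nfe2l1, the factor known to induce proteasome genes when the proteasome is inhibited. RefSeq promoter windows (GRCm38.p6, 250 bases before to 50 after the start) were at hand for 39 of the 47 proteasome genes, and both strands were searched. The E-box was found in windows of 4 of the 39 genes (10.3%), against 7.15% of all 32851 windows, and the antioxidant core in 6 (15.4%), against 12.4%. The first share of each pair counts genes, which had 41 windows, and the second counts windows. No E-box overlapped an antioxidant core in these genes. A match is a description of the letters and not evidence of binding. The sequences below run 5′ to 3′ on the strand of the gene, with E-boxes and antioxidant cores in capitals. The first group has an E-box, and its last member was lower in Hi.
Psme3, chr11:101316113-101316212, plus strand: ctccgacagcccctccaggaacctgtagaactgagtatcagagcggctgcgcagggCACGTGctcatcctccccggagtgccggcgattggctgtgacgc
Psmd9, chr5:123228090-123228189, plus strand: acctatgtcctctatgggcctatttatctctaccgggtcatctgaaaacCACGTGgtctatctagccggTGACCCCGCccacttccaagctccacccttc
Psma4, chr9:54950699-54950798, plus strand: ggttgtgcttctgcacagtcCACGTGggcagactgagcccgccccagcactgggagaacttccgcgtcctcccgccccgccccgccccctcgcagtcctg
Psmb10, chr8:105938453-105938552, minus strand: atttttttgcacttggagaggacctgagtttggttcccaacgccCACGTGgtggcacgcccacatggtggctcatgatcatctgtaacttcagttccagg
The second group holds constitutive catalytic subunits with an antioxidant core close to the start.
Psmb5, chr14:54617996-54618095, minus strand: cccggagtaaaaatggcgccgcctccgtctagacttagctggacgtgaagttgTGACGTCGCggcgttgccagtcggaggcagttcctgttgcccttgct
Psmb6, chr11:70525257-70525356, plus strand: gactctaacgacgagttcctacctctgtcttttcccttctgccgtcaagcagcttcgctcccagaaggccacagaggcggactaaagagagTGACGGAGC

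Of the 7 genes at an unadjusted p under 0.05, 4 had a window, and 2 of these 4, Psme3 and Psmd9, held the E-box. The E-box share was 10.3% of the 39 genes and 7.15% of all windows. These 4 genes were picked by p from the same data, and a link between motif and difference was not tested. The other carriers did not share a direction: Psma4 had a difference of 0.31 and Psmb10 of -0.42. The antioxidant core was found for Psmb5, Psmb6, Psmc6, Psmd12, Psmd9 and Psme4, whose differences ran from -0.09 for Psme4 to 0.60 for Psmd9.

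No alpha subunit of the core reached an unadjusted p under 0.05, against 9.25% of all genes higher by that limit. All 8 had differences above 0, from 0.11 for Psma5 to 0.53 for Psma8, with a median of 0.17; 6 of the 8 did not overlap, against 30.0% of all genes. Psma4, which like the other alpha subunits forms the outer ring, stood at 12.34 and 12.32 in Hi and at 11.94 and 12.10 in Lo. Both Hi arrays were above both Lo arrays, and the difference was 0.31 ± 0.14 (SE; limma adjusted p = 0.36). Psma2 stood at 12.85 and 12.86 in Hi and at 12.58 and 12.72 in Lo, a difference of 0.21 ± 0.14. Psma7 stood at 12.88 and 12.86 in Hi and at 12.63 and 12.73 in Lo. Psma8 encodes an alternative to Psma7 that is best known from the testis. Its probe set stood at 9.51 and 9.52 in Hi and at 9.39 and 8.59 in Lo. Its difference of 0.53 ± 0.31 rested on the second Lo array: without it the difference was 0.13. Without the first Lo array the differences of Psma1 and Psma3 were -0.01 and -0.02, against 0.14 and 0.16 with it, and that of Psma2 was 0.14.

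Among the constitutive beta subunits Psmb2 stood apart. Psmb2, a non-catalytic subunit of the beta ring, stood at 12.61 and 12.63 in Hi and at 12.06 and 11.93 in Lo. The arrays of the groups did not overlap, and the difference was 0.63 ± 0.14 (SE), 1.55-fold (limma adjusted p = 0.154). It was 0.56 against the first Lo array alone and 0.70 against the second. Psmb3, also non-catalytic, stood at 13.30 and 13.17 in Hi and at 12.88 and 13.07 in Lo, and its other probe set differed by 0.48 where the brighter one differed by 0.26 (0.16 without the first Lo array). Psmb4 stood at 12.42 and 12.29 in Hi and at 12.20 and 12.30 in Lo, with overlap. Psmb1 was the beta subunit with the reverse order, at 12.92 and 12.96 in Hi and at 13.04 and 12.99 in Lo. Its difference of -0.07 ± 0.13 was smaller than its error, and its 2 other probe sets had 0.03 and 0.05.

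The 3 constitutive catalytic subunits had differences of at most 0.18. Psmb5, which carries the chymotrypsin-like site, stood at 12.41 and 12.47 in Hi and at 12.24 and 12.28 in Lo, a difference of 0.18 ± 0.13 (SE). Psmb6, with the caspase-like site, stood at 13.09 and 13.06 in Hi and at 12.98 and 13.11 in Lo, and the groups overlapped (0.03 ± 0.14). Psmb7, with the trypsin-like site, stood at 12.15 and 12.20 in Hi and at 12.04 and 12.07 in Lo (0.12 ± 0.13). Psmb5 and Psmb7 did not overlap between the groups, with Hi higher, as did 30.0% of all genes, and none of the 3 passed.

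The immunoproteasome subunits had differences of both signs. Psmb8, which replaces Psmb5, stood at 12.52 and 12.60 in Hi and at 12.35 and 12.58 in Lo, with overlap and a difference of 0.10 ± 0.15 (SE). Psmb9, which replaces Psmb6, stood at 12.24 and 12.35 in Hi and at 12.03 and 12.28 in Lo, again with overlap (0.14 ± 0.16). Psmb10, which replaces Psmb7, was the proteasome gene with the largest negative difference. It stood at 12.17 and 12.22 in Hi and at 12.94 and 12.29 in Lo, a difference of -0.42 ± 0.27 (limma adjusted p = 0.483). The first Lo array carried most of it: without that array the difference was -0.10, and without the second it was -0.75. Psmb11, the thymus-specific catalytic subunit, was dim on all 4 arrays by the same limit.

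Each immunoproteasome subunit was set against the one it replaces on the same array. The log2 ratio of Psmb8 to Psmb5 changed by -0.08, that of Psmb9 to Psmb6 changed by 0.11, and that of Psmb10 to Psmb7 by -0.54. The last was -0.20 without the first Lo array and -0.88 without the second. Such a ratio shows unequal change of a pair and not which subunit is more abundant. These ratios were not tested.

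**Figure D3:**
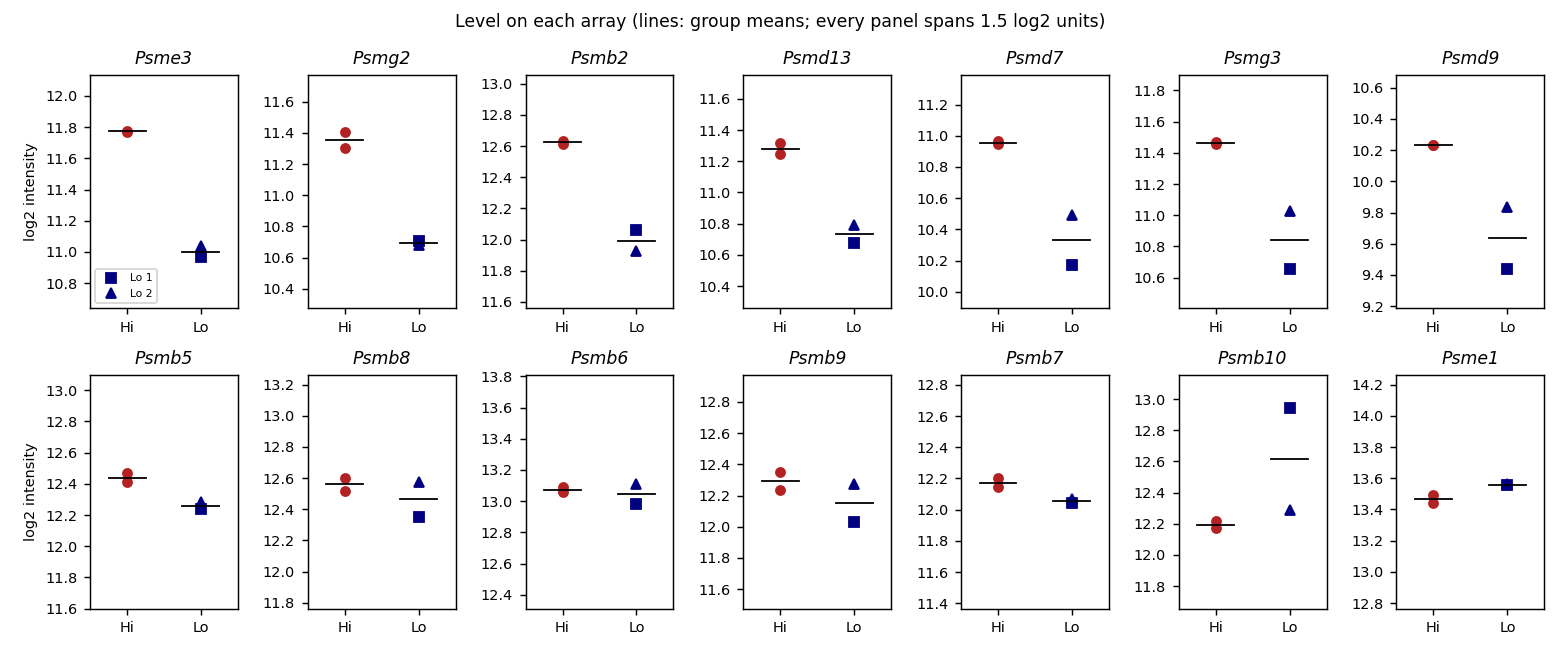
Log2 intensity (vertical axis) on each array in Hi and Lo (horizontal axis) for the 7 genes at an unadjusted p under 0.05 (top row) and for catalytic subunits, their replacements and Psme1 (bottom row); circles are the Hi arrays, the square and the triangle the first and second Lo array, and lines the group means. In the top row both Hi arrays lie above both Lo arrays in every panel, which the choice of these genes by p on the same arrays largely fixes. In the bottom row differences are small except for Psmb10, where the first Lo array at 12.94 stands above the other 3.

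Genes of MHC class I peptide supply, some of which are induced together with the immunoproteasome by interferon, had differences of both signs. Of 12 measured, 5 were above 0 and 7 below, with a median of -0.06. Those above 0 were Tap2, Erap1, Calr, Canx and Pdia3. Between the groups, 4 did not overlap with Hi higher and 6 with Hi lower, against 30.0% and 25.4% of all genes. At an unadjusted p under 0.05, 0 were higher and 1 was lower, against 9.25% and 11.0% of all genes. That gene was Nlrc5, the transactivator of MHC class I genes. It stood at 10.56 and 10.63 in Hi and at 11.16 and 10.96 in Lo (-0.47 ± 0.15, SE; limma adjusted p = 0.241). Irf1, an interferon-induced factor that drives the immunoproteasome genes, stood at 10.77 and 10.62 in Hi and at 11.05 and 11.48 in Lo. Canx, a chaperone of class I assembly, stood at 12.72 and 12.57 in Hi and at 12.37 and 12.30 in Lo. Psmb8 lies between the peptide transporter genes Tap1 and Tap2 in the GRCm38.p6 annotation, with Psmb9 on the other side of Tap1. Tap1 had a difference of -0.22 ± 0.30 and Tap2 of 0.09 ± 0.14, both smaller than their errors. Antigen-presenting cell markers had values of both signs: of 7 dendritic and macrophage markers 3 were above 0 and 4, all MHC class II genes or their invariant chain Cd74, were below. All 7 markers together had a summed level of 12.97 and 13.09 in Hi and of 14.16 and 14.36 in Lo. Their part in the values of Psmb10 was not tested.

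In the base, 7 of 9 genes were above 0, with a median difference of 0.13, and 5 did not overlap with Hi higher (53.6% and 30.0% of all genes). At an unadjusted p under 0.05 the base had 0 of 9 genes, against 9.25% of all genes higher and 11.0% lower. The 6 ATPases, Psmc1 to Psmc6, form the ring that unfolds substrates. Psmc4 stood at 12.06 and 12.10 in Hi and at 11.65 and 11.84 in Lo, a difference of 0.34 ± 0.15 (SE; limma adjusted p = 0.336), and its other probe set gave 0.29. Psmc6 stood at 12.43 and 12.37 in Hi and at 12.01 and 12.26 in Lo. Psmc3 stood at 12.64 and 12.74 in Hi and at 12.37 and 12.63 in Lo. Both Hi arrays were the higher ones, with the second Lo array close below them. Psmd1, a scaffold of the base, stood at 11.86 and 11.88 in Hi and at 11.45 and 11.74 in Lo. The other base scaffold, Psmd2, and the ubiquitin receptor Psmd4 had -0.05 ± 0.14 and 0.04 ± 0.17 and overlapped. The remaining ATPases ran from -0.04 for Psmc5 to 0.13 for Psmc2. Without the first Lo array Psmc3 had 0.06, Psmc6 0.14 and Psmd1 0.13, and without the second the median of the base was 0.32.

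The lid had the higher median of the 2 parts of the cap. All 8 genes were above 0, from 0.08 for Psmd6 to 0.62 for Psmd7, with a median of 0.26, and 6 did not overlap, against 30.0% of all genes. Without the first Lo array the 2 parts were close, with a median of 0.15 for the lid and 0.13 for the base. Psmd7, the partner of the deubiquitinase Psmd14, stood at 10.94 and 10.96 in Hi and at 10.17 and 10.49 in Lo. The groups were far apart for this gene, with 0.62 ± 0.17 (SE), 1.54-fold (limma adjusted p = 0.202); its other 2 probe sets above the dim limit gave 0.22 and 0.32. Psmd13, a structural subunit of the lid, stood at 11.25 and 11.32 in Hi and at 10.68 and 10.79 in Lo. Its difference was 0.55 ± 0.14, 1.46-fold (limma adjusted p = 0.179), and its other probe sets gave 0.50 and, at a dimmer one, -0.25. Psmd12 stood at 11.76 and 11.78 in Hi and at 11.32 and 11.49 in Lo (0.37 ± 0.14). Psmd3 stood at 10.85 and 10.73 in Hi and at 10.44 and 10.57 in Lo. Psmd14 itself, the enzyme that cuts the ubiquitin chain off the substrate, stood at 12.58 and 12.53 in Hi and at 12.23 and 12.48 in Lo. Its difference of 0.20 ± 0.16 was 0.07 without the first Lo array. Psmd11, a subunit whose amount is known to go with the assembly of capped proteasomes, had 8 probe sets. The brightest stood at 11.43 and 11.49 in Hi and at 11.08 and 11.38 in Lo; it gave 0.23, or 0.08 without the first Lo array, and the 5 others above the dim limit ran from -0.25 to 0.73.

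The activators had differences of both signs. Psme3 encodes a nuclear activator that opens the core without ubiquitin or ATP and is known to promote the degradation of cell cycle inhibitors. It stood at 11.77 and 11.78 in Hi and at 10.97 and 11.04 in Lo. The arrays of each group lay close together and the groups well apart. Hi exceeded Lo by 0.77 ± 0.13 (SE), which is 1.71-fold, and did not pass (limma adjusted p = 0.117). Its other bright probe set gave 1.11 ± 0.25. Leaving out single arrays, it ran from 0.74 to 0.81. Over all alternatives with 4 arrays its adjusted p ran from 0.0705 to 0.21, and without single arrays from 0.173 to 0.479.

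Psme1, a subunit of the interferon-inducible activator, had the reverse order at a far smaller size. It stood at 13.44 and 13.49 in Hi and at 13.56 and 13.56 in Lo (-0.09 ± 0.13, SE). The log2 ratio of Psme3 to Psme1 changed by 0.86, and by 0.83 and 0.90 without the first and the second Lo array. Psme4, an activator linked to histone degradation, stood at 10.97 and 10.83 in Hi and at 10.83 and 11.14 in Lo, with overlap. Its 2 other probe sets above the dim limit on every array gave 0.15 and 0.53; a further one was dim on 3 of the 4 arrays. Psmf1, an inhibitor of the core, stood at 9.30 and 9.54 in Hi and at 8.93 and 9.51 in Lo. It overlapped too, and its 3 other probe sets ran from -0.27 to 0.21.

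The assembly chaperones, which are not part of the finished particle, had the highest class median at 0.36. All 7 were above 0 and 6 did not overlap, against 53.6% and 30.0% of all genes. Psmg2, a partner in a dimer that guides the alpha ring, stood at 11.31 and 11.40 in Hi and at 10.71 and 10.68 in Lo. Both Lo arrays lay at the same low level, and the difference was 0.66 ± 0.13 (SE), 1.58-fold (limma adjusted p = 0.141); its other probe set above the dim limit gave 0.88. Psmg1, the other part of that dimer, had a difference of 0.09 ± 0.16. Psmg3, which acts in a second dimer on the alpha ring, stood at 11.46 and 11.47 in Hi and at 10.65 and 11.03 in Lo, a difference of 0.62 ± 0.19 (limma adjusted p = 0.222). It was 0.43 without the first Lo array, and the dimmer probe set of Psmg3 gave 0.24. Its partner Psmg4 had 0.20 ± 0.14.

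The chaperones of the base completed the class. Psmd9 stood at 10.24 and 10.23 in Hi and at 9.44 and 9.84 in Lo. The Hi arrays were nearly equal and above both Lo arrays, with a difference of 0.60 ± 0.19 (SE; limma adjusted p = 0.241), and its other probe sets gave 0.51 and 1.08. Psmd5 stood at 11.18 and 10.96 in Hi and at 10.62 and 10.79 in Lo (0.36 ± 0.16). Psmd10, known as the oncoprotein gankyrin, had 0.14 ± 0.13. The median of the class was 0.26 without the first Hi array and 0.47 without the second.

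**Figure D4:**
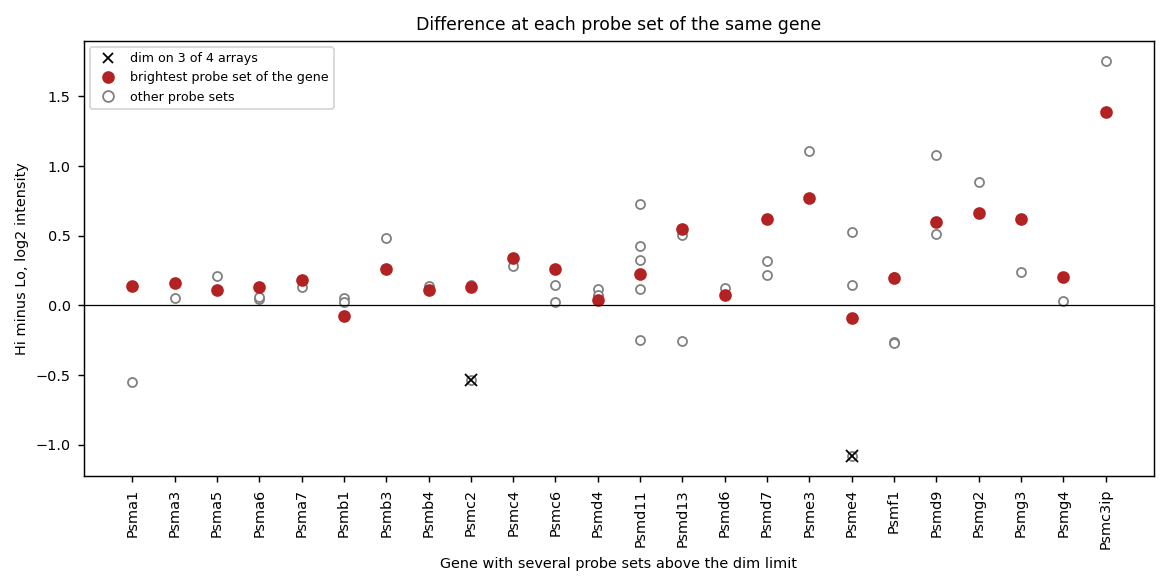
Difference of Hi minus Lo in log2 intensity (vertical axis) at every probe set above the dim limit on at least 1 array, for genes with over 1 such probe set (horizontal axis); filled points are the brightest probe set of a gene, open points its others, and crosses mark 2 probe sets that were dim on 3 of the 4 arrays. For 16 of the 23 proteasome genes shown all these probe sets lie above 0, Psme3, Psmd7, Psmd9, Psmg2 and Psmg3 among them. Psma1, Psmb1, Psmd11, Psmd13, Psme4 and Psmf1 have probe sets on both sides, as Psmc2 has through a crossed one alone.

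The probe sets of a gene mostly had the same sign. Of the 23 proteasome genes with several probe sets above the dim limit on every array, these had the same sign for 17. Most proteasome probe sets were above 0, so a shared sign is frequent between different genes too. Agreement within genes beyond that was not tested. Of 85 proteasome probe sets above the dim limit on at least 1 array, 72 had a difference above 0, against 49.9% of the 29321 such probe sets of the whole array. At an unadjusted p under 0.05, 14 of the 85 were higher, against 12.4% of those 29321 (9.05% with the dim ones), and 1 was lower, against 12.9% (8.91% with the dim ones). The lower one was the dimmer probe set of Psma1 (-0.55 ± 0.18, SE). Averaging all probe sets of a gene and refitting over genes called 0 proteasome genes, against 1.39% of all genes higher and 1.52% lower, and a fit over 1 probe set per gene also called 0, against 1.04% and 1.18%.

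The 2 genes that share only the prefix were unlike each other. Psmc3ip, whose product works in homologous recombination and is not a proteasome subunit, had the largest difference of all 49. It stood at 11.27 and 11.00 in Hi and at 9.70 and 9.80 in Lo, a difference of 1.39 ± 0.17 (SE) or 2.61-fold (limma adjusted p = 0.0948). Its other probe set gave 1.76 ± 0.16 (limma adjusted p = 0.0839). Psmc3ip passed 0.05 in the fit to gene means (limma adjusted p = 0.0329) and in the fit over 1 probe set per gene (limma adjusted p = 0.0486). Over the other alternatives its adjusted p ran from 0.073 to 0.434. Psme3ip1, whose product binds Psme3, stood at 10.84 and 11.01 in Hi and at 10.90 and 11.29 in Lo, with overlap.

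Among factors that work with the proteasome but lie outside the prefix, both signs occurred. Of 10 measured assembly and associated factors, 7 were above 0 and 3 below, with a median of 0.07; at an unadjusted p under 0.05, 2 were higher and 2 lower. For this and the other related lists the shares of all genes are 9.25% higher and 11.0% lower. Zfand2a, a stress-induced partner of the cap, stood at 9.15 and 9.02 in Hi and at 9.56 and 9.77 in Lo (-0.58 ± 0.16, SE; limma adjusted p = 0.196). Zfand5, a further zinc finger partner that activates the proteasome, stood at 12.05 and 12.17 in Hi and at 12.62 and 12.45 in Lo. Both were thus lower on both Hi arrays, opposite to the median subunit. Txnl1, a thioredoxin-like protein bound to the cap, stood at 12.62 and 12.52 in Hi and at 12.15 and 12.18 in Lo (0.40 ± 0.13). Uchl5, a deubiquitinase of the cap, had 0.44 ± 0.15, also at an unadjusted p under 0.05. Pomp, the chaperone that matures the core, had 0.06 ± 0.14.

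The ubiquitin shuttles and the segregase Vcp with its cofactors gave 4 of 9 genes above 0 and 5 below, with a median of -0.02; 1 of them was lower and 0 higher by unadjusted p. Ubqln2, a shuttle that carries ubiquitylated proteins to the cap, was that gene, at 11.53 and 11.53 in Hi and 11.91 and 11.98 in Lo (-0.41 ± 0.13, SE). Ufd1, a cofactor of Vcp, stood at 10.73 and 10.87 in Hi and at 11.59 and 11.03 in Lo. Ddi1 was dim throughout. Of the ubiquitin genes and their activating enzymes, Uba6 alone was measured, at 11.03 and 11.12 in Hi and 11.08 and 11.11 in Lo.

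The transcription factors that act on proteasome genes overlapped between the groups, while a processing enzyme and a partner were lower on both Hi arrays. Nfe2l1 stood at 11.44 and 11.54 in Hi and at 11.55 and 11.17 in Lo (0.13 ± 0.19, SE). Nfe2l2, its relative of the oxidative stress response, stood at 11.24 and 11.29 in Hi and at 11.26 and 11.03 in Lo. Of the 6 genes of this list, 2 were lower and 0 higher by the same unadjusted limit. Ngly1, which removes sugar chains and thereby activates Nfe2l1, stood at 9.78 and 9.64 in Hi and at 10.49 and 10.74 in Lo. Its difference of -0.90 ± 0.16 was 1.87-fold lower in Hi (limma adjusted p = 0.125). Maff, a small Maf protein that can pair with these factors, stood at 5.54 and 5.81 in Hi and at 8.28 and 7.53 in Lo. It was 4.69-fold lower in Hi (-2.23 ± 0.31; limma adjusted p = 0.0999) and did not pass. The other small Maf genes, Mafg and Mafk, had 0.003 ± 0.16 and 0.03 ± 0.16.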

How the data were processed

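Transcript levels of LSK cells were measured on 4 Affymetrix mouse arrays, 2 per group. The authors deposited an intensity for each probe set, on a linear scale by its range. RMA is the method per the submitters' processing notes, with version and background step not given in the sources used here. RMA makes the arrays' distributions alike and hides any change in the total RNA of a cell. Intensities were log2-transformed with no offset. Of all probe sets, 64 controls were left out. The platform annotation gave 1 symbol to 34945 of the 45037 remaining probe sets, several to 932 and none to 9160; the Entrez identifiers of 34741 matched the GRCm38.p6 gene table, with 0 symbols changed. A gene was represented by its brightest probe set. Hi minus Lo was fitted in R version 4.3.3 with lmFit and eBayes of limma version 3.58.1 (two-sided, no block, 2 residual degrees of freedom) over all 45037 probe sets and adjusted by the Benjamini-Hochberg method. The dim limit, 4.74 to 4.87, was each array's brightest of 27 silent bacterial control probe sets. The array number limits the precision. Steps were checked on simulated data. The alternatives were an offset, other scalings, a dim filter, other gene summaries, an intensity trend, a replicate block and leaving out each array. The members, the lists and the motifs were chosen with earlier results of these data known. Values on each array were given for the catalytic subunits, activators and inhibitor, for up to 4 genes of smallest p in each other class, and up to 3 per related list; Psmc3ip, Psme3ip1, Psmg1, Psmg4, Pomp, Nfe2l1 and other genes given by difference were named beyond this.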

Additional observations from a re-analysis of the deposited data

How the results depend on the processing

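Under each alternative run, 0 proteasome genes passed an adjusted p of 0.05 in limma's test. The count higher at an unadjusted p under 0.05, 7 as reported, was 11 with an offset of 16 (10.4% of all genes), 11 with arrays shifted to 1 median (12.9%), 13 with an intensity trend in the prior (10.1%) and 4 with the mean of all probe sets (11.3%); without single arrays it ran from 1 to 7 and the count of lower genes from 0 to 1. Shifting the arrays to 1 median gave class medians of 0.281 for all proteasome genes, 0.270 for core alpha, 0.212 for core beta, 0.215 for the immunoproteasome genes, 0.227 for the base, 0.353 for the lid and 0.148 for the activators and inhibitor; the mean of all probe sets gave 0.076 for the base and -0.063 for the activators and inhibitor; cyclic loess gave 0.072 for core beta and 0.070 for the immunoproteasome genes. Without single arrays the medians ran from 0.135 to 0.273 for all, 0.133 to 0.255 for core alpha, 0.104 to 0.161 for core beta, 0.002 to 0.211 for the immunoproteasome genes, 0.128 to 0.324 for the base, 0.152 to 0.364 for the lid, -0.094 to 0.274 for the activators and inhibitor and 0.255 to 0.472 for the assembly chaperones. After the shift to 1 median Psmb1 had 0.022, Psmc5 0.060, Psmd2 0.046, Psme1 0.002 and Psme4 0.004; with the mean of all probe sets Psmb1 had 0.002, Psmc2 -0.086, Psmd2 0.015 and Psmf1 -0.033; with cyclic loess Psmb6 had -0.036 and Psmd4 -0.006, and with quantile normalization Psmb6 had -0.00031. Without single arrays the differences ran from -0.013 to 0.293 for Psma1, -0.015 to 0.344 for Psma3, -0.037 to 0.092 for Psmb6, -0.014 to 0.21 for Psmb8, -0.125 to 0.374 for Psmc1, -0.295 to 0.226 for Psmc5, -0.104 to 0.006 for Psmd2. They also ran from -0.102 to 0.174 for Psmd4, -0.02 to 0.174 for Psmd6, -0.004 to 0.306 for Psmd8, -0.245 to 0.065 for Psme4, -0.092 to 0.484 for Psmf1, -0.048 to 0.22 for Psmg1 and -0.366 to 0.021 for Psme3ip1. The replicate numbers are shared by the groups, but the labels state no pairing. A replicate block gave 6 genes higher at an unadjusted p under 0.05. Over all probe sets, deviations of same-numbered arrays correlated at 0.0719, which cannot decide whether those arrays share an origin. The summed neutrophil markers were higher on the first array of both groups (14.59 and 14.10 in Hi, 14.77 and 14.15 in Lo). So were the summed granulocyte-monocyte, T cell and NK cell markers. The LSK, erythroid, replication, B cell, and dendritic and macrophage lists were higher on the second array of both groups. Of the marker lists, the stem cell one alone kept no common order (12.56 and 12.60 in Hi, 13.92 and 13.83 in Lo). A shared origin of same-numbered arrays was not tested by these orders.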
